A study of Mus musculus with 5 samples.

Results

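A stretch of 45 kb of mouse chromosome 17 that holds the genes Nubp2, Spsb3, Eme2, Mrps34 and Nme3 and the larger part of Mapk8ip3 was described probe by probe on tiling arrays of fibroblast RNA. The stretch was defined by probe position in the coordinates of the array files, and it was proposed because earlier results of the same arrays were known there. Its levels and its differences between groups are therefore given as a description. Calls from a fit of all windows of the chromosome are printed only as counts. The share over all windows stands beside them except in the closing section on processing. Nothing is read from these calls for the block. It held 307 of the 387986 probes of the chromosome. Of its 45 windows of 1 kb, 44 had at least 4 probes and were used, out of 56080 such windows along the chromosome.

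The RNA came from 2 lines of mouse embryo fibroblasts of strain FVBN, called MEFF and MEFB, which had become immortal spontaneously in culture and were started from embryos at 12.5 days post coitum. Both lines carry the Thp deletion on 1 of their copies of chromosome 17, MEFF with the genotype Thp/+ and MEFB with the genotype +/Thp, so that the deletions are reciprocal and the control condition holds it too. The labels put the deletion between T and Sod2, and the block lies outside that interval. Total RNA of MEFF was hybridised to 2 arrays, its polyA RNA to 2 and the polyA RNA of MEFB to 1. Each hybridisation set double-stranded cDNA in Cy3 against sonicated genomic DNA of the same line (input) in Cy5. Such cDNA does not keep the strand of the RNA. Values below are log2(cDNA/input), centred on the median of all probes of the array, so that 0 is the middle of the chromosome and 1 is a doubling of the ratio. Where 5 values are listed, the first pair is from MEFF total RNA (arrays 1 and 2), the next pair from polyA RNA of MEFF (arrays 1 and 2) and the last from MEFB.

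Mapk8ip3 encodes JIP3, a scaffold protein that binds kinases of the JNK pathway and links cargo to kinesin motors, and it is best known for transport along axons. Mrps34 encodes a protein of the small subunit of the mitochondrial ribosome. Around them lie genes with a range of basic tasks. Nubp2 encodes an ATPase of the cytosolic machinery that assembles iron-sulphur clusters, Eme2 a partner of the Mus81 endonuclease that cuts branched DNA, Spsb3 a SOCS-box protein of the kind that presents substrates to a ubiquitin ligase, and Nme3 a nucleoside diphosphate kinase.

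No source used here gives the genome build of the array files, so the block was placed on NCBIM37 by its probes. The spacing of the probes gave the rough place, and the input signal predicted from base composition gave the exact one, with no cDNA value in either step. The spacing matched with a correlation of 0.266 at the rough place and 0.205 at the next best one, a modest lead. The input signal was then scanned only within 2000 bp of the rough place. It correlated with its prediction at 0.448 at the best shift, against 0.145 at the next best shift more than 100 bp away. At the file positions read as they stand the correlation was 0.0879. The 5 parts of 9 kb, placed one by one, differed by at most 7 bp. The block then covers chr17:25018711-25063710 of NCBIM37. In that annotation it starts in the last 7.5% of Igfals, which encodes a binding protein of insulin-like growth factors in blood. It goes on with Nubp2 (chr17:25019556-25023295, minus strand), Spsb3 (chr17:25023625-25029094, plus strand), Eme2 (chr17:25029097-25032032, minus strand), Mrps34 (chr17:25032061-25033234, plus strand) and Nme3 (chr17:25033445-25034467, plus strand). It ends inside Mapk8ip3 (chr17:25034478-25073913, minus strand), of which 74.1% of the length and 30 of the 32 exons lie in the block.

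The genes are packed closely. Nubp2 and Spsb3 start back to back with 329 bp between them, and Eme2 and Mrps34 with 28 bp between them. Spsb3 and Eme2 end 2 bp apart, and Nme3 and Mapk8ip3 end 10 bp apart. The DNA between the starts of both divergent pairs is shown because genes read in opposite directions start from it. The sequences are RefSeq's for GRCm38.p6, in which 5 of the 6 genes matched the promoter table. The first is the 250 bases before the Nubp2 start on the side of Spsb3 (chr17:24886351-24886600, minus strand), and the capitals mark the CCAAT motif on either strand. The second is the whole stretch of 32 bases between the RefSeq starts of Eme2 and Mrps34 (chr17:24895088-24895119, minus strand), and the capitals mark the ETS core CCGGAAG.
Nubp2 to Spsb3: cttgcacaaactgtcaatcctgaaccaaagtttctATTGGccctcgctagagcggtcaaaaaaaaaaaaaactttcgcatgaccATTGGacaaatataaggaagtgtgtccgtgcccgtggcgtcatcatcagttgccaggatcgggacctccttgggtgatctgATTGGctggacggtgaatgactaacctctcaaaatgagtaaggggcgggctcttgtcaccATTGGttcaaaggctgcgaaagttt
Eme2 to Mrps34: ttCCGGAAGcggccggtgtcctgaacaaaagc
The Nubp2 stretch held 4 matches of CCAAT, searched as CCAAT and its reverse complement ATTGG. At least 1 such match lay in 33.8% of the 32851 promoters of the table over the same 250 bases, and 4 or more lay in 0.84%. The gap between Eme2 and Mrps34 held 1 match of CCGGAAG, searched on both strands, which 2.1% of promoters hold in the 32 bases before their start. CCAAT, the ETS core, the GC box GGGCGG and the TATA box TATAAA were each searched in both stretches. The Nubp2 stretch also held 1 GC box, not marked (32.7% of promoters over 250 bases), and the other searches found no match. The shares are not adjusted for the number of searches. None of the matches overlap. A match describes these letters only.

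Cells of both lines gave strong cDNA signal across the block, in total and in polyA RNA. Over its 307 probes the total RNA arrays averaged 0.777 and 0.793. The mean was 1.25 and 2.1 on the polyA arrays of MEFF, and MEFB gave 1.75. The total RNA arrays thus lay close together and below all polyA arrays, and the MEFB array lay between the MEFF polyA arrays. For MEFF the group means were 0.785 ± 0.0113 (SD, n = 2) in total and 1.68 ± 0.6 (SD, n = 2) in polyA RNA. Among 1862 tiles of 45 kb, 27 and 18 were higher than the block on the total RNA arrays, 8 and 6 on those with polyA RNA of MEFF, and 4 in MEFB. The tile before it was lower on every array, at 0.139, 0.114, 0.298, 0.676 and 0.186, and so was the tile after it, at 0.417, 0.367, 0.524, 0.921 and 0.727. In RNA from whole cultures, fewer cells that make a transcript and less of it per cell cannot be told apart. The labels do not say that the arrays of a group came from separate cultures, so their spread may be technical, and their number limits the precision throughout.

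The arrays differed in contrast. The median cDNA intensity of all probes was 2561 and 2542 on the total RNA arrays, 1568 and 569 on those with polyA RNA of MEFF and 747 for MEFB, and the SD of all 1 kb window levels ranged from 0.464 to 0.47 on the first 3 arrays and was 0.781 and 0.723 on the other two. No block probe was at the scanner limit. MEFF polyA array 2 was above array 1 in 43 of the 44 block windows, where the share over all windows was 48.4%. A percentile within an array, which does not change with such stretching, is therefore given beside levels. The array numbers in the file headers run in one range for the total RNA arrays and in another for the polyA arrays, so array series and RNA type cannot be told apart.

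Signal ran through nearly the whole block. A window was counted as high when its level was above the 95th percentile of all windows on each array of a group. In total RNA 23 of 44 block windows were high (4.32% of all windows). In polyA RNA the count was 34 of 44 for MEFF (4.37%) and 32 of 44 for MEFB (5.0%). On all 5 arrays together 22 of 44 were high (2.57%). The median block window stood at the 96.3th, 96.6th, 97.4th, 97.5th and 97.2th percentile. These shares belong to the values that singled the block out and are printed as its description.

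**Figure D1:**
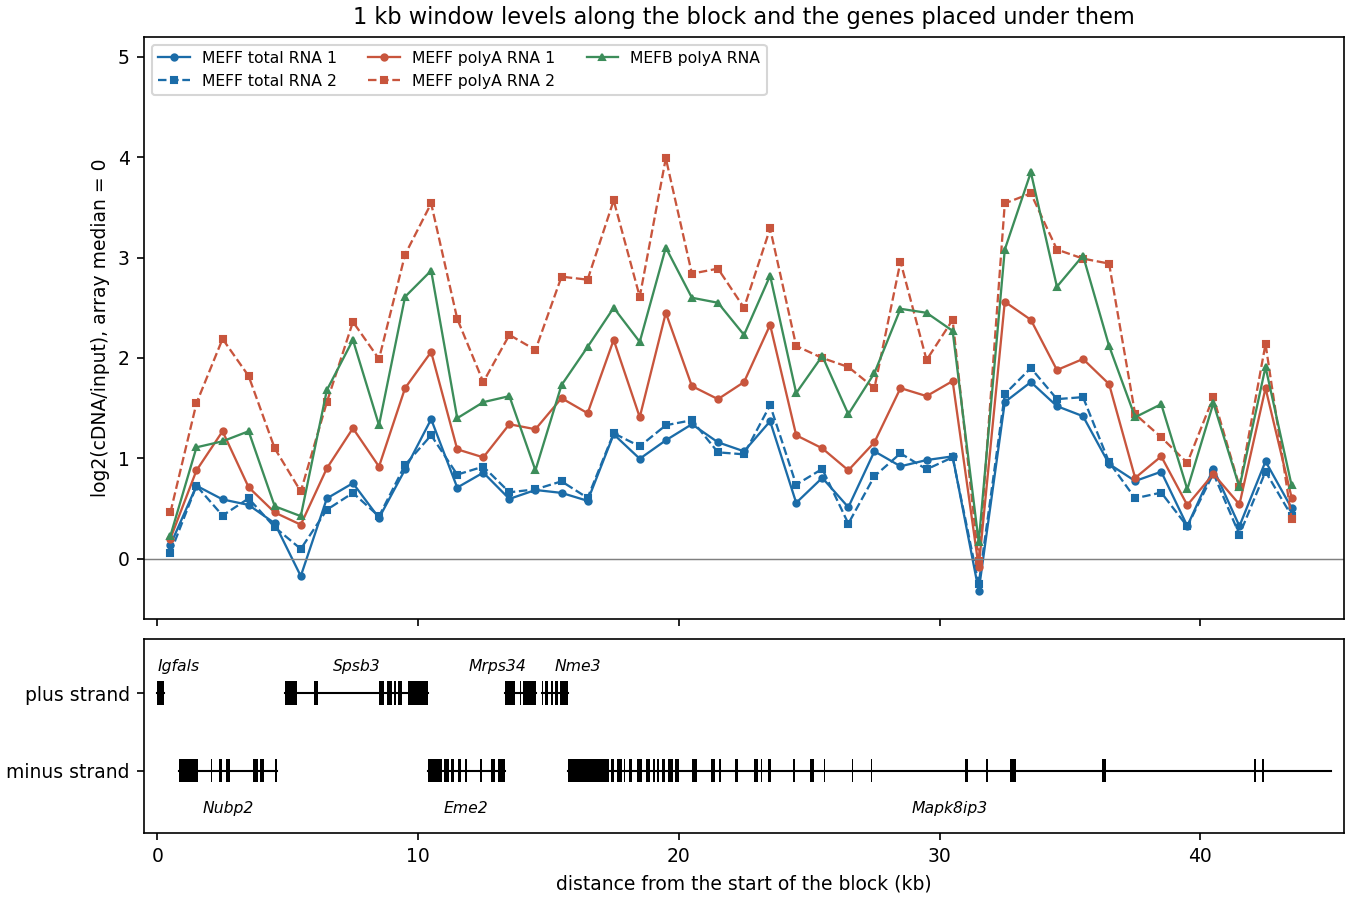
Mean log2(cDNA/input) of each 1 kb window (upper panel, 1 line per array, array median at 0) against the distance from the start of the block in kb, with the placed genes and their exons as boxes below, by strand. The MEFF total RNA lines stay under 2, the MEFF polyA array 2 line reaches 3.99, and all 5 lines drop together in the window from 31 to 32 kb.

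The brightest windows all lay in Mapk8ip3. The window from 33 to 34 kb, over intron 5, had 1.76, 1.9, 2.38, 3.64 and 3.85, and the window from 32 to 33 kb, over exon 6, had 1.56, 1.64, 2.56, 3.54 and 3.08. In the window from 19 to 20 kb, with 7 of its 8 probes in exons, the levels were 1.18, 1.33, 2.45, 3.99 and 3.1. The total RNA arrays and the MEFB array peaked in the first of these windows, MEFF polyA array 1 in the second and MEFF polyA array 2 in the third. The windows from 23 to 24 kb (1.37, 1.53, 2.33, 3.29 and 2.82) and from 35 to 36 kb (1.42, 1.61, 1.99, 2.99 and 3.02) completed the 5 highest.

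Few windows were dark. Directly beside the bright windows, the window from 31 to 32 kb had -0.319, -0.254, -0.0841, -0.0272 and 0.165, the lowest value of the block on every array, and all 7 of its probes were intronic. It stood at the 22.2th, 27.8th, 42.2th, 52.0th and 64.9th percentile of the respective arrays. The first window, with the end of Igfals and the gap before Nubp2, had 0.138, 0.0596, 0.201, 0.461 and 0.229. The window from 5 to 6 kb, at the start of Spsb3, had -0.173, 0.0976, 0.339, 0.67 and 0.424.

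**Figure D2:**
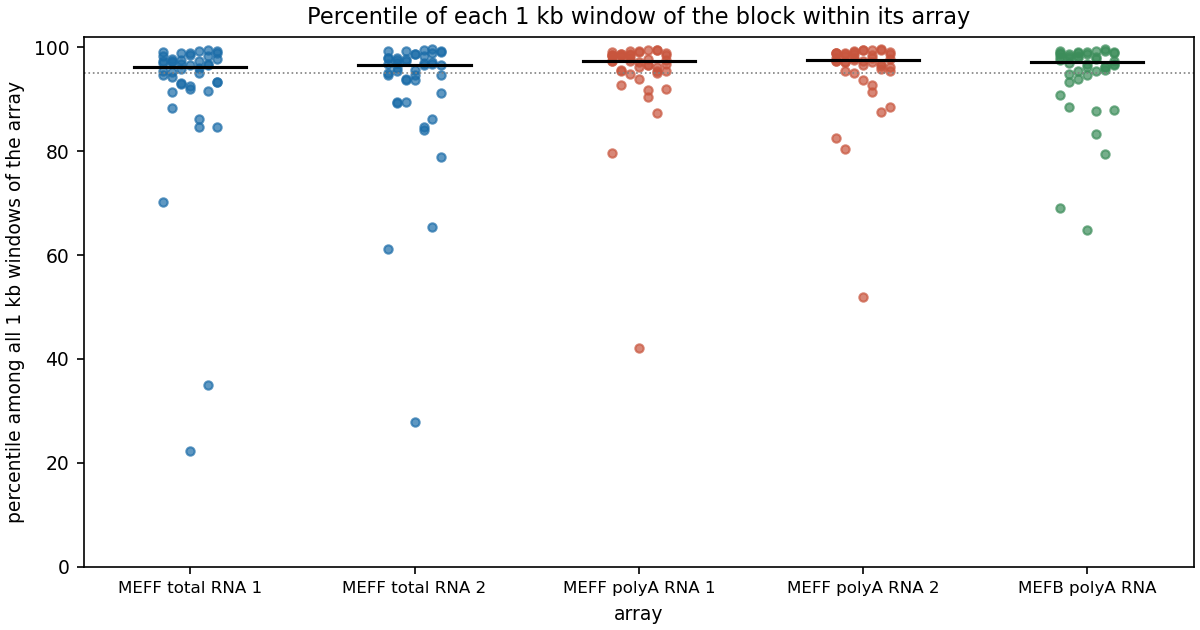
Percentile of each of the 44 block windows among all 1 kb windows of the same array, 1 point per window, with the median as a black bar and the 95th percentile as a dotted line. Most windows of each array lie near the top, with medians from 96.3 to 97.5, and the lowest point of each array is the window from 31 to 32 kb.

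Signal was higher in the placed exons than around them, and no cDNA value had entered the placing. The 89 probes in exons of the reference transcripts averaged 1.23, 1.3, 2.24, 3.49 and 2.65, and the 152 probes in introns 0.523, 0.481, 0.755, 1.4 and 1.28. Exons exceeded introns on every array, by 0.712 and 0.818 in total RNA, by 1.48 and 2.09 in polyA RNA of MEFF and by 1.36 in MEFB. The 52 probes in exons of other annotated transcripts of these genes lay between them, at 0.877, 0.994, 1.31, 2.24 and 2.02. The 14 probes between genes had 0.263, 0.216, 0.18, 0.332 and 0.102, close to the middle of the chromosome. Among the 30 brightest block probes of each array, the number in reference exons was 21, 21, 27, 28 and 21, and none lay between genes. Dividing by the input puts probes on a common scale, but exon probes differed in base composition, with 58.7% GC against 53.1% over the whole block. Within the intron probes, GC content correlated with the level at -0.349 to -0.0857 over the 5 arrays, and within the exon probes at -0.222 to -0.0906, and the part of base composition in the difference was not tested.

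By mean level of their exon probes the 6 genes kept 1 order on all 4 MEFF arrays: Mapk8ip3, Mrps34, Nme3, Nubp2, Eme2 and Spsb3, from high to low. On the MEFB array Nubp2 came before Nme3, and the order was otherwise the same. Mapk8ip3 exons (42 probes in the block) had 1.75, 1.84, 3.0, 4.39 and 3.58, above the other genes on each array. Mrps34, with only 4 exon probes, had 1.04, 1.39, 2.27, 3.83 and 2.81, Nme3 (7 probes) 0.988, 1.1, 2.1, 3.5 and 1.78, and Nubp2 (8 probes) 0.968, 1.06, 2.06, 3.35 and 2.55. Those middle genes differed from each other by less than the MEFF polyA arrays differed. At the low end Eme2 (15 probes) had 0.862, 0.819, 1.38, 2.58 and 1.77, and Spsb3 (10 probes) 0.446, 0.465, 1.17, 2.0 and 1.45. Against the 589 coding genes of the chromosome that were placed with at least 3 exon probes, the mean percentile over the arrays was 90.4 for Mapk8ip3, 78.4 for Mrps34, 72.1 for Nubp2, 70.7 for Nme3, 59.7 for Eme2 and 51.4 for Spsb3. The block was therefore not uniformly high in its exons: Spsb3 and Eme2 were near the middle of the coding genes, and Mapk8ip3 near the top.

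**Figure D3:**
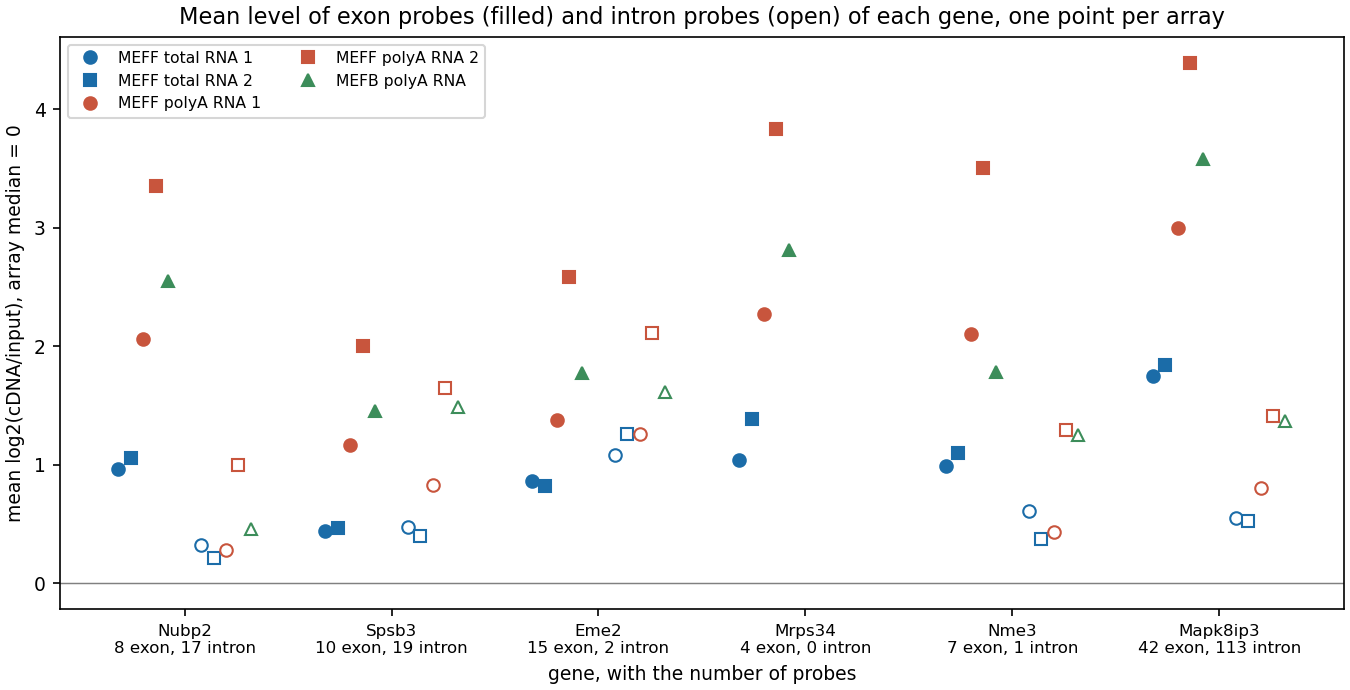
Mean log2(cDNA/input) of the exon probes (filled symbols) and intron probes (open symbols) of each gene, 1 point per array, with probe numbers under the gene names. In Nubp2 and Mapk8ip3 every filled symbol is above the open symbol of the same array, while in Spsb3 they overlap, and Mrps34 has no intron probe.

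Mapk8ip3, exon by exon, showed sharp steps. Of its exons inside the block 21 held a probe, and 13 of these had probes on the introns at both sides. In 11 of the 13 the exon was above both neighbouring introns on all 5 arrays. Exon 11 is a clear case: it is only 58 bp long, its single probe had 3.67, 3.57, 5.23, 6.1 and 6.12, and the introns before and after it averaged between 0.43 and 1.68 over the arrays. Exon 20 (2 probes) had 3.74, 3.76, 4.91, 6.06 and 5.52, the highest exon on both total RNA arrays. The exceptions were exon 17, whose probe (0.316, 0.449, 0.461, 1.38 and 1.72) was below the brighter neighbouring intron on every array, and exon 29, above both neighbours on 4 of 5 arrays. Even exon 1, beyond the end of the block at the 5′ start of the gene, was bright, at 2.34, 2.72, 3.85, 5.27 and 4.46 in its single probe.

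The last exon of Mapk8ip3 was dimmer than the mean of the inner ones. Exon 32, which is 1537 bp long and ends the transcript, had 0.73, 0.826, 1.79, 3.17 and 2.27 over 12 probes. The 30 probes of the inner exons had 2.16, 2.24, 3.48, 4.88 and 4.1. The last exon was thus lower than this mean on every array, at a similar GC content (58.5% and 57.6%). Not every inner exon was brighter, since exons 17, 21 and 24 were below the last exon on every array.

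The introns of Mapk8ip3 were far from alike. Intron 5, of 3289 bp, was among the 2 brightest introns of the gene on all 5 arrays, at 1.56, 1.71, 2.09, 3.24 and 3.23 over 23 probes. Of those probes 16 were above the 95th percentile of all probes on every array. The annotation holds a retained-intron transcript there, Mapk8ip3-010, with an exon of 2786 bp (chr17:25052299-25055084, minus strand of NCBIM37) that covers most of intron 5 and all of exon 5. The 19 probes of intron 5 inside that exon had 1.65, 1.79, 2.16, 3.22 and 3.14. The 113 intron probes of the gene that lie in no exon of the transcripts used had 0.55, 0.523, 0.808, 1.41 and 1.37. The signal did not stop at the border of that transcript, since the other 4 probes of the intron had 1.14, 1.29, 1.77, 3.32 and 3.65.

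Intron 8, of 3586 bp, was also bright although none of its probes lies in an exon of the transcripts used, at 1.04, 1.01, 1.63, 2.31 and 2.39 over 18 probes, of which 9 passed the 95th percentile on every array. The short intron 7 beside it had -0.279, -0.174, -0.0842, -0.0652 and 0.152 over 6 probes, none of them past that percentile on any array, and it makes up most of the dark window from 31 to 32 kb. Intron 4, the longest that lies whole in the block at 5676 bp, had 0.598, 0.502, 0.707, 1.19 and 1.14 over 34 probes. Intron 1, beyond the block, had 0.49, 0.407, 0.298, 0.823 and 0.741 over 50 probes. Introns 5 and 8 were thus above introns 1, 4 and 7 on all 5 arrays. Over all block probes the 5 arrays correlated pairwise at 0.81 to 0.937, a description of points that share probe sequence and array design.

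**Figure D4:**
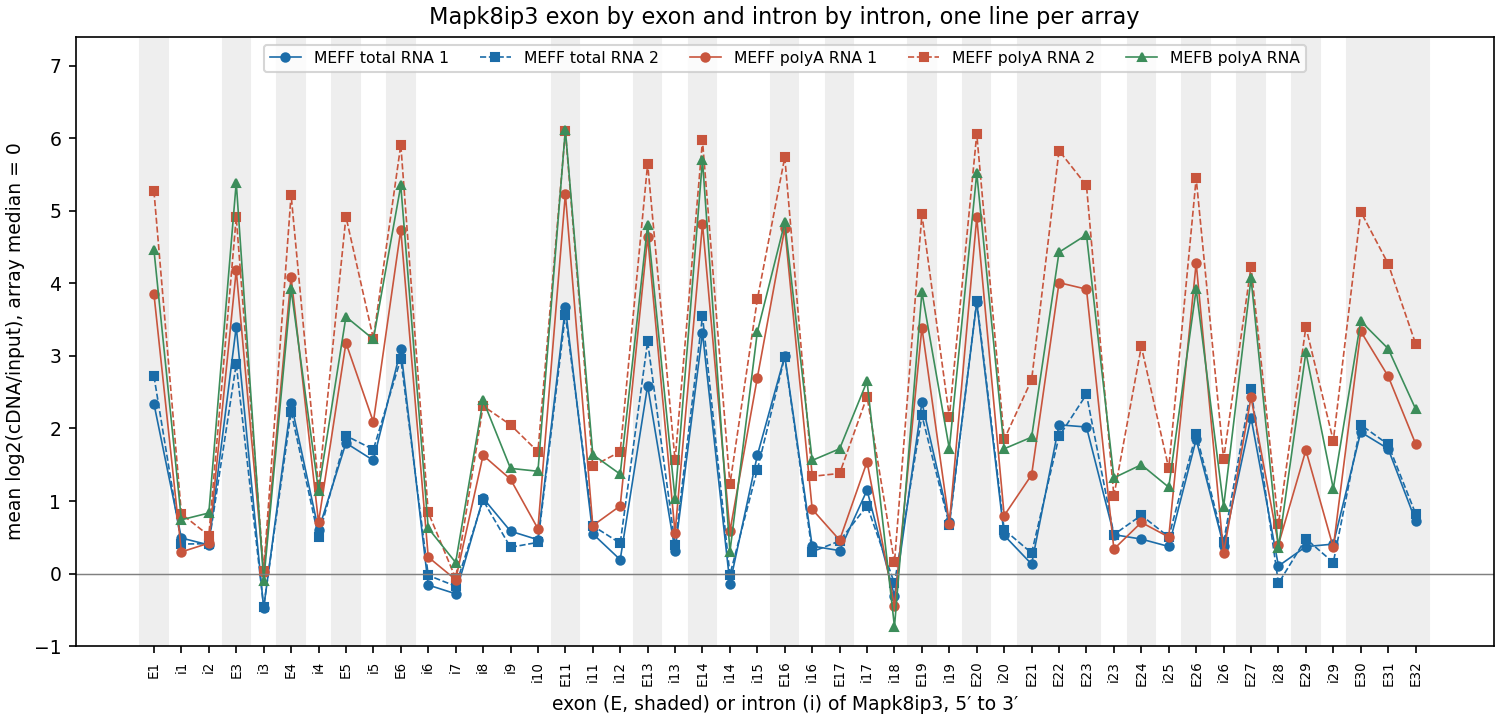
Mean log2(cDNA/input) of each exon (E, shaded) and intron (i) of Mapk8ip3 that holds a probe, from the 5′ to the 3′ end, 1 line per array. Exons stand out as peaks on every array, introns 5 and 8 lie above introns 3, 6 and 7, and exon 32 is lower than exon 20 or exon 11.

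Among the small genes the exon steps differed. In Nubp2, exons were above introns by 0.646, 0.852, 1.78, 2.35 and 2.1, with exon 6 at 1.11, 1.86, 3.21, 4.91 and 3.84 and the adjoining intron 6 at 0.301, 0.334, 0.229, 0.62 and 0.134. Spsb3 showed no such step: its exons minus its introns gave -0.0289, 0.0638, 0.345, 0.344 and -0.0453. That gene was uneven along its length. Its exon 1 (5 probes, 66.0% GC) had 0.0973, 0.186, 0.398, 0.827 and 0.58, while the single probe in its last exon had 1.67, 1.78, 3.45, 5.29 and 4.32. Intron 2 of Spsb3, 2365 bp long with 17 probes, had 0.589, 0.489, 0.877, 1.72 and 1.62, above exon 1 on every array.

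In Eme2 exon 6 and the last exon, exon 8, were the brightest on the MEFF arrays, and the last exon was the brightest in MEFB. There exon 6, at 1.32, was below exon 4, at 1.61. Exon 7, between them, had 0.556, 0.725, 0.7, 3.12 and 1.56 in its single probe, so the levels did not rise steadily towards the 3′ end. The last exon had 1.39, 1.23, 2.06, 3.54 and 2.87 over 5 probes, and the single probe of exon 6 had 1.54, 1.68, 2.17, 3.33 and 1.32, against 0.552, 0.254, 0.807, 1.29 and 0.869 over the 3 probes of exon 1. Mrps34 had 0.641, 1.07, 1.87, 3.17 and 2.37 in exon 1 (3 probes) and 2.22, 2.35, 3.49, 5.81 and 4.14 in the single probe of exon 3. For both divergent pairs the first exons were thus lower than the last ones. This included Nubp2, where exon 1 had 0.543, 0.586, 1.0, 1.89 and 1.54 and the last exon 1.28, 1.18, 2.47, 3.77 and 3.59. First exons were also richer in GC than last ones: 67.3% against 54.0% in Mrps34, 64.0% against 53.2% in Eme2, 66.0% against 64.0% in Spsb3 and 59.0% against 57.0% in Nubp2. The last exons of Spsb3 and Mrps34 rest on 1 probe each, and the part of base composition was not tested. The 3 probes in the gap between the Nubp2 and Spsb3 starts, most of which is printed above, had 0.553, 0.57, 0.371, 0.495 and 0.0951, and no probe fell between Eme2 and Mrps34. Because Spsb3 and Eme2, and Nme3 and Mapk8ip3, run end to end and the cDNA keeps no strand, signal at those junctions cannot be assigned to either gene. Some annotated Mapk8ip3 transcripts, left out of the exons used, run through neighbouring genes. In the exon levels of those neighbours, signal of such transcripts cannot be told apart from that of the genes themselves.

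Comparing MEFF total with MEFF polyA RNA asks which transcripts the polyA fraction holds more or less of. All 6 genes had higher exon levels on each polyA array than on either total RNA array, and so did the 3 probes in the end of Igfals, at 0.0678, -0.0518, 0.168, 0.291 and 0.123. The share of the 589 placed coding genes that did the same is not given here, so nothing is read from this count. Their median total minus polyA difference was -0.828. The block as a whole was lower in total RNA by a difference of -0.89, where the median tile had -0.00752 and 7 of 1862 tiles had a lower value. It was -0.466 without MEFF polyA array 2 and -0.358 with quantile normalization. In 42 of 44 windows both total RNA arrays were below both polyA arrays (21.1% of all windows), and in 0 of 44 both were above (15.5%). By percentiles within arrays, which remove the differing contrast, both were below in 29 of 44 (22.0%) and above in 5 of 44 (22.5%). Since the block was picked from these values, nothing is read from the counts.

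On the log2 scale the difference between RNA types was larger in exons than in introns, and by percentiles within arrays, which have a ceiling, it was not. Total minus polyA was -1.6 for exon probes, -0.575 for intron probes and -0.0169 for probes between genes. Exon probes had the larger difference under each of 6 other normalizations too, from -0.702 to -1.74 against -0.262 to -0.627 for intron probes, while the difference between genes changed sign in 4 of the 6. As mean percentiles within arrays, exon probes stood at 86.0 and 86.6 in total RNA and at 92.7 and 94.6 in polyA RNA, and intron probes at 76.3 and 74.7 against 80.7 and 87.4. Both classes thus ranked higher on each polyA array than on each total RNA array, and total minus polyA in mean percentile was -7.31 for exon and -8.5 for intron probes. The median exon difference over the 589 coding genes, which were not matched for level, was -0.828. By gene it was -1.9 for Mapk8ip3, -1.84 for Mrps34, -1.76 for Nme3, -1.69 for Nubp2, -1.14 for Eme2 and -1.13 for Spsb3. That order depended on the normalization. With loess Mapk8ip3 had -0.799, the difference nearest 0 of the 6 genes, where Mrps34 had -1.9 and Spsb3 -1.02, and with quantile normalization Mapk8ip3 had -0.736. The bright intron 5 of Mapk8ip3 had -1.03 and intron 8 had -0.947, larger than the -0.113 of intron 1.

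The 3 windows furthest below 0, at -1.97, -1.63 and -1.52, lay from 19 to 20, from 17 to 18 and from 16 to 17 kb, in the 3′ exons of Mapk8ip3. The 3 nearest 0, at -0.0391, -0.23 and -0.232, lay from 43 to 44 kb, in the dark window from 31 to 32 kb and in the first window. From 43 to 44 kb the MEFF polyA array 2 value of 0.399 was below both total RNA values, 0.504 and 0.427. A limma fit of all 56080 windows called 0 block windows at an adjusted p of 0.05 (0.0% of all windows), with 28 at an unadjusted p under 0.05 (7.51%). After normexp background correction the same fit called 5 of 44, all lower in total RNA (0.685% of all windows, 0.656% in that direction), and after quantile normalization 11 of 44, all lower in total RNA (3.57%, and 2.11% in that direction). With MEFF polyA array 1 left out it called 42 of 44 (21.6%) and with array 2 left out 27 of 44 (14.4%), when the fit rests on the spread between the total RNA arrays alone.

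MEFB against MEFF compares lines with the Thp deletion on opposite copies. In the block the window levels of the MEFB array mostly fell inside the spread of the MEFF polyA arrays. Levels depend on the contrast of the array, and the SD of all windows in MEFB, 0.723, also lay between 0.47 and 0.781 of those arrays. By percentile within arrays the median block window of MEFB, at 97.2, was below both MEFF polyA arrays, at 97.4 and 97.5. The MEFB level minus the MEFF polyA mean was 0.076 over the block, where the median tile had 0.0262. By level, MEFB lay between both MEFF polyA arrays in 33 of 44 windows (32.8% of all windows), above both in 9 (34.3%) and below both in 2 (32.9%). The same counts by percentile are not given here, so nothing is read from those by level. With a single MEFB array, differences between lines and between arrays cannot be told apart. The limma fit called 0 block windows (0.00713% of all windows), with 1 at an unadjusted p under 0.05 (14.2%), with 0 after normexp (0.662%, of which 0.282% lower in MEFB) and 1, lower in MEFB, after quantile normalization (2.9%, and 1.26% in that direction). With MEFF polyA array 1 left out it called 23 of 44 (32.9%), of which 22 were lower in MEFB, and with array 2 left out 30 of 44 (30.5%), of which 29 were higher, so the direction followed which MEFF polyA array was kept.

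Nme3 stood lowest relative to MEFF on the log2 scale. Its mean percentile in MEFB was also below both MEFF polyA arrays, at 90.8 against 95.4 and 98.2. Its exon level of 1.78 in MEFB was below both MEFF polyA values, 2.1 and 3.5, and the difference of -1.02 kept its sign under all 6 other normalizations, from -0.585 to -1.92. Exons 1 and 2 of Nme3 had 1.04 and 0.528 in MEFB, against 2.46 and 3.16 for exon 1 and 1.45 and 2.65 for exon 2 in MEFF polyA RNA. Exon 5, with 3 probes, had 1.58 in MEFB, also below both MEFF polyA values, 1.72 and 3.07. Exon 3 had 3.06, between the MEFF values of 2.81 and 4.74. The window from 14 to 15 kb, at the end of Mrps34 and the start of Nme3, had the lowest difference of the block, -0.803, and its MEFB value of 0.881 was near the total RNA values of 0.685 and 0.691.

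For the other genes the MEFB exon levels lay between the MEFF polyA arrays, with differences from -0.239 for Mrps34 to -0.114 for Mapk8ip3. The signs of these differences held under most other normalizations, but with the cDNA channel alone Nubp2, Spsb3, Eme2 and Mapk8ip3 turned positive. By mean percentile within arrays only Mapk8ip3 lay between, at 98.0 in MEFB against 96.3 and 98.1. MEFB was below both MEFF polyA arrays for Nubp2 (97.1 against 97.8 and 98.0) and Spsb3 (70.8 against 75.9 and 80.4). The same held for Eme2 (92.5 against 94.2 and 95.2) and Mrps34 (97.5 against 98.2 and 98.6). The windows with the largest positive differences were those over the bright introns of Mapk8ip3: 0.844 from 33 to 34 kb, 0.652 from 29 to 30 kb and 0.534 from 35 to 36 kb. In these windows MEFB, at 3.85, 2.45 and 3.02, was above both MEFF polyA arrays, at 2.38 and 3.64, 1.62 and 1.98, and 1.99 and 2.99. Exons minus introns over the block came to 1.36 in MEFB, below the 1.48 and 2.09 of MEFF polyA RNA.

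The other genes of these pathways on the chromosome were measured in the same way, with exon levels given as mean percentiles among the 589 coding genes. Of 7 listed genes of the mitochondrial ribosome 5 were measured, with a median percentile of 77.0 and a range from 48.4 (Mrps10) to 85.8 (Mrps18a), and Mrps34 at 78.4 was next below Mrps18a. For JNK and p38 signalling 6 of 7 genes were measured, with a median of 77.2, from 37.0 for the kinase gene Mapk13 to 97.5 for Mapk14. Mapk8ip3 at 90.4 came next after Mapk14. The DNA repair genes (4 of 6 measured) had a median of 80.4, with Eme2 lowest, and the genes of iron-sulphur cluster assembly (2 of 3 measured) were Nubp2 at 72.1 and Narfl at 75.0. In MEFF total minus polyA RNA the list medians were -2.24, -1.54, -1.69 and -1.73, beside -0.828 for all coding genes. These were not matched for level: the median percentiles of the lists were 77.0, 77.2, 80.4 and 73.6, against 50.3 for all coding genes. Nothing is therefore read from the gap. Among markers, the fibroblast genes Cyp1b1 and Crim1 stood at 67.4 and 76.9, and 4 measured markers of other cell types (Pou5f1, Emr1, Rhag and Cryaa) stood between 11.5 and 35.0, with Thbs2 of the former and 4 of the latter not measured. Those fibroblast genes differed between the lines, with MEFB minus MEFF polyA at 3.0 for Cyp1b1 and 1.53 for Crim1, while the markers of other cell types ran from -0.277 to 0.446. The part of such a difference between the lines in the MEFB values of the block was not tested.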

How the data were processed

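The authors deposited probe intensity values for both channels of 5 arrays. Per the file headers, NimbleScan 2.2.34 did the extraction, and the values show no background subtraction or scaling. Samples were grouped by the line and RNA type in the labels. Here log2(cDNA/input) was centred on each array's median, with no loess or quantile step, and averaged over 1 kb windows of at least 4 probes. All windows were fitted with limma 3.58.1 (R 4.3.3, lmFit and eBayes, 3 group means, 2 residual degrees of freedom), with Benjamini-Hochberg adjustment over 56080 windows and a threshold of 0.05. The fit was also run on simulated data in which all arrays had the same noise, taken from the total RNA arrays. The arrays here differ in spread, so that run does not show how the fit behaves on them. A probe was taken as 50 bases long and put in an exon by its centre. Mapk8ip3 transcripts annotated as nonsense-mediated decay, which run through neighbouring genes, were left out of the exons used. For the comparison across genes, 1200 of 1860 tiles of 50 kb (64.5%) could be placed on NCBIM37.

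The block, its genes and the gene lists were chosen with earlier results of these data known. The windows named were the 5 highest, the 3 lowest and, per comparison, the 3 with the largest and smallest signed difference. The genes named were those of the block, the lists for the mitochondrial ribosome, JNK and p38 signalling, DNA repair, iron-sulphur clusters and neighbours, and cell type markers. Alternatives changed the normalization, the windows or the replicates, 1 choice at a time except for normexp with a replicate left out and normexp followed by quantile normalization, and the 6 normalizations applied to single probe classes and genes were chosen after seeing the data.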

Additional observations from a re-analysis of the deposited data

How the results depend on the processing

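Of 154 alternative values for the results that answer a comparison, 119 stayed within the spread between arrays or within 1.5 times the reported count, and 35 did not. Leaving out 1 of 2 arrays always moves their mean by less than their SD. Levels and differences with a replicate left out were therefore bound to count as unmoved. For the single MEFB array the spread of the MEFF polyA arrays was used. The total RNA arrays agree so closely that nearly every setting moved their level of 0.785: it was 0.968 with loess, 1.1 with quantile normalization, 1.93 with normexp, 0.947 with the cDNA channel alone, 0.759 without probes of low input and 0.575 as the median of probes. With normexp the level was 2.87 in MEFF polyA and 2.58 in MEFB polyA RNA. Exons minus introns in total RNA, 0.765 as reported, was 1.07 with quantile normalization, 1.32 with normexp, 0.572 with the cDNA channel alone, 0.353 as the median of probes and 0.921 when all 50 bases had to lie in an exon, and in MEFF polyA RNA it was 2.46 with normexp. The cause of these shifts was not tested.

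At the 99th percentile the high windows numbered 3 in total RNA, 6 in polyA RNA of MEFF and 6 in MEFB, and they numbered 19 in polyA RNA of MEFF without probes of low input, where fewer windows remained. For MEFF total against polyA RNA, called windows numbered 0 as reported, 11 with quantile normalization and 5 with normexp. With each replicate left out they numbered 0 to 42, and with normexp and each replicate left out 0 to 13. For MEFB against MEFF they numbered 1 with quantile normalization and 0 to 30 with each replicate left out. Among the named windows, over both comparisons, 0 calls became 7 with quantile normalization, 4 with normexp, 0 to 22 with each replicate left out and 0 to 6 with normexp and each left out. These counts of calls are given without their share over all windows. Some named windows were also picked for their differences, so nothing is read from the counts. Both block differences moved by less than the spread between arrays under all alternatives run, which with a replicate left out was fixed in advance. They ran from -1.31 to -0.358 for total minus polyA RNA and from -0.348 to 0.5 for MEFB minus MEFF. The latter was -0.135 with quantile normalization and -0.293 with normexp, so its sign was not stable. Of 130 values for single probe classes and genes, 118 moved by less than the spread and 12 did not. No paired analysis was possible because the replicate numbers follow accession order and pair no arrays. The fit without MEFF polyA array 1 or 2 assumes that the lone array varies like the total RNA arrays.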
